A study of Homo sapiens with 36 samples.

Results

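The mature miRNAs hsa-miR-452-5p and hsa-miR-224-5p are cut from 2 neighboring hairpins inside GABRE, the gene of the epsilon subunit of the GABA-A receptor on chromosome X. They were selected by their names, 2 of the 509 miRNA names listed in the tables, after their fold changes in RPE1* 7/3 and RPE1* 21/3 were known. Values of those 2 lines are therefore given as a description with no test, and only the other 5 lines were tested. Small RNA was sequenced from 36 libraries, 3 for each of 12 groups, and each of 7 aneuploid lines was compared with a control of the same cell type. Both miRNAs were listed in all 7 tables.

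The parental lines were HCT116, a near-diploid colorectal carcinoma line, and RPE1, retinal pigment epithelial cells immortalized with telomerase. An asterisk marks cells that also express histone H2B-GFP, the number after the slash is the copy number of the gained chromosome, and a "c" marks a clone. The extra chromosomes were brought in by microcell-mediated transfer, except that chromosome 12 of RPE1 5/3 12/3 was gained spontaneously and RPE1* 7/3 carried further spontaneous gains. None of the names lists chromosome X among the gained chromosomes. HCT116 5/4 was compared with HCT116. The cell line list of the study gives both as provided by the same outside laboratory, and RPE1 and RPE1* as from another. Its methods name a cell collection as the source of HCT116. HCT116 18/3 c2, HCT116* 3/3 c11 and HCT116* 8/3 c7 were all compared with the same 3 HCT116* libraries. By its name, however, HCT116 18/3 c2 has no H2B-GFP, and the study lists HCT116 as its parent. Any difference between HCT116 and HCT116* therefore enters its fold changes and cannot be told apart from the trisomy. RPE1 5/3 12/3 was compared with RPE1, and RPE1* 21/3 and RPE1* 7/3 each with its own 3 RPE1* libraries. The lines marked c are single clones, and in each line a change that came with its isolation cannot be told apart from one that came with its extra chromosome. The libraries were described by the study as biological replicates.

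A miRNA guides Argonaute proteins to messenger RNAs that pair with its seed, bases 2 to 8 counted from its 5′ end, and lowers their translation and stability. A hairpin that lies inside a gene on the same strand can be cut from the transcript of that gene, and hairpins close to each other are often cut from a shared precursor. In the liver, bowel and other epithelial tissues, miR-224 and miR-452 have been studied mainly in carcinomas, where both are often found at altered levels.

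On GRCh37, the build to which the reads were mapped, the miR-224 hairpin lies on the minus strand at chrX:151127050-151127130 (81 bases) and the miR-452 hairpin at chrX:151128100-151128184 (85 bases), 969 bases apart. GABRE runs from 151121596 to 151143152 on the same strand. In GABRE-201, the protein-coding transcript of 9 exons, both hairpins lie in intron 6. In GABRE-209, a transcript annotated as a retained intron, both lie within exon 1. Each mature miRNA comes from 1 locus, so its reads need not be divided between copies. The 3p arms of both hairpins were not listed in any of the 7 tables. Among the miRNAs tested in all 7 tables, however, the only name of a 3p arm was hsa-miR-548aq-3p. The tables thus hold few 3p arms of any hairpin, and the absence of these ones does not show whether they were in the cells. The chromosome X neighbors named below were taken from the same miRNAs, so the limit holds for them too.

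The mature sequences are shown to compare the seeds, which are in capitals and decide the possible targets. They are from RefSeq on GRCh38.p14, where 441 of the 509 listed names had a mature sequence.
hsa-miR-224-5p: uCAAGUCAcuagugguuccguuuag
hsa-miR-452-5p: aACUGUUUgcagaggaaacuga
The seeds differ, and over the whole miRNAs only 7 bases are the same at the same position. hsa-miR-224-5p has 25 bases, of which 11 are G or C, and hsa-miR-452-5p has 22, of which 9 are. In the RefSeq table, the seed of hsa-miR-224-5p was held by no other name. That of hsa-miR-452-5p was shared with hsa-miR-4676-3p and hsa-miR-892c-3p, neither of which was listed in the tables. Both are 3p arms, of which the tables hold few, so their absence does not show whether they were in the cells. With so few bases in common, a read of either miRNA does not match the other.

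The hairpins are shown to place the mature arms, in capitals, within the precursors (GRCh38.p14, minus strand, chrX:151958578-151958658 for miR-224 and chrX:151959628-151959712 for miR-452).
miR-224 hairpin: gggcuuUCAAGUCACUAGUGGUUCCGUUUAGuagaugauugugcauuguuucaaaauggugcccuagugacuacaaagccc
miR-452 hairpin: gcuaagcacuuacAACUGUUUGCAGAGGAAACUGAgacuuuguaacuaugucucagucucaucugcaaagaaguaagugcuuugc
The 5p arm takes positions 7 to 31 of the miR-224 hairpin and positions 14 to 35 of the miR-452 hairpin. Both therefore come from the side of the hairpin nearest to the start of the transcript.

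Because both miRNAs lie in the same gene on the same strand, the 300 bases around the annotated start of GABRE are shown as well, with each CG dinucleotide in capitals (GRCh38.p14, minus strand, chrX:151974627-151974926, 250 bases before and 50 after the start).
GABRE promoter: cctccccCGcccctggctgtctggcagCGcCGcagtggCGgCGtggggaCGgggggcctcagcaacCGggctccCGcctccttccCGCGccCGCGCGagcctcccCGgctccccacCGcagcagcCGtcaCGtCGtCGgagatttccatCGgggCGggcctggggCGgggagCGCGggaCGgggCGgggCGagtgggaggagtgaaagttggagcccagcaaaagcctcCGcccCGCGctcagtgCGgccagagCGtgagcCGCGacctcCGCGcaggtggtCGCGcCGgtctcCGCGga
The motif searched was CG, which reads the same on both strands. This window held 41, against a median of 14 over 35116 RefSeq promoters of the same length, and 93.3% of them held fewer. DNA methylation and transcription from this start were not measured here.

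The tables give, for each miRNA, a mean of the normalized counts over the 6 libraries of a comparison and the log2 fold change of line over control. Levels of each line and each control were worked out from these values. They are also given as CPM, here counts per 1000000 of the summed normalized counts of all listed miRNAs in that group. How much of this sum is missing because few 3p arms were listed is not known. No values of single libraries were at hand, so the spread between libraries is known only through the standard error (SE) of the fold change. All levels are approximate, because the fold change comes from a model fit. In RPE1* 21/3, HCT116 5/4 and RPE1 5/3 12/3 that fit also held a term for replicate pairs. Summed means ran from 5556870 in the HCT116 5/4 table to 11221232 in the RPE1* 7/3 table.

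In the control cells, hsa-miR-224-5p stood at 111 CPM in HCT116, 164 in RPE1, and 77.3 and 116 in the RPE1* controls of RPE1* 21/3 and RPE1* 7/3. The HCT116* control was computed separately in 3 tables and came to 179 to 180, a difference of 0.692% between the highest and the lowest. For hsa-miR-452-5p, the levels were 54.8 CPM in HCT116, 51.2 to 52.3 in HCT116*, 52.5 in RPE1, and 24.7 and 18 in the RPE1* controls of RPE1* 21/3 and RPE1* 7/3. Each control of the HCT116 type thus had more hsa-miR-452-5p than each RPE1* control, but RPE1 without H2B-GFP lay at the level of HCT116*. No error can be given for these levels, so it is not known which neighbors in this order differ beyond the spread between libraries. hsa-miR-224-5p was the more abundant of the pair in all 12 groups. By its mean it ranked between place 59 of 297 miRNAs in the RPE1 5/3 12/3 table and place 95 of 358 in the HCT116 5/4 table in the 5 tested lines, and hsa-miR-452-5p between place 86 and place 124.

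The cell types were checked against marker miRNAs. The intestinal epithelial list (miR-192-5p, miR-194-5p, miR-215 under either of its names, miR-200b-5p, miR-200c-5p and miR-141-5p) summed to 372 to 1024 CPM over the HCT116 controls and lines and 172 to 276 over the RPE1 ones, where the last 3 of them were not listed. The pigment epithelial list (miR-204-5p and miR-211-5p) summed to 2.15 to 4.71 CPM in the HCT116 groups and 332 to 1983 in the RPE1 groups. Both sums were thus higher in the cell type they stand for. By the means of each comparison, miR-192-5p made up most of the intestinal sum and miR-204-5p nearly all of the pigment epithelial one. Over the HCT116 and RPE1 comparisons, miR-194-5p (16.3 to 139 CPM against 3.93 to 24.5) and miR-215 (5.71 to 23.8 against 4.64 to 7.97) overlapped. The mesenchymal list (miR-143-5p, miR-145-5p and miR-199a-5p) summed to 114 to 364 CPM in the HCT116 groups and 1.77 to 158 in the RPE1 groups. By the means of each comparison, miR-145-5p made up most of this sum, so the list largely restates that miRNA.

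**Figure D1:**
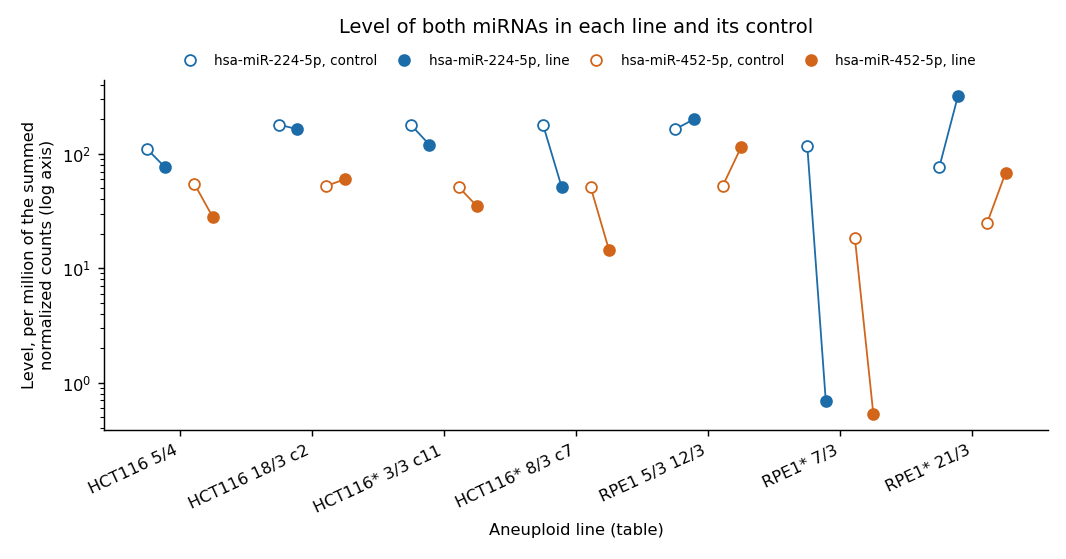
Level of hsa-miR-224-5p (blue) and hsa-miR-452-5p (orange) in each control (open circles) and line (filled circles), in CPM on a log axis. Each circle is 1 group of 3 libraries with no error available. RPE1* 7/3 stands apart, with 0.684 and 0.526 CPM, and the highest levels are those of RPE1* 21/3 for hsa-miR-224-5p (320) and RPE1 5/3 12/3 for hsa-miR-452-5p (115).

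Both miRNAs were lower in HCT116* 8/3 c7. hsa-miR-224-5p had a normalized level of 1394 in HCT116* and 407 in the line (179 and 51.6 CPM), a log2 fold change of -1.78 (SE 0.10), or 3.42-fold lower (DESeq2 Wald test with Benjamini-Hochberg adjustment, adjusted p = 9.79e-70). hsa-miR-452-5p had 398 in HCT116* and 113 in the line (51.2 and 14.3 CPM), a log2 fold change of -1.82 (SE 0.16), or 3.52-fold lower (adjusted p = 8.41e-29 by the same test). Of the 293 miRNAs tested in this line, 15.0% were called deregulated in either direction. Throughout, miRNAs with a mean of 10 or more were tested, and a call required an adjusted p below 0.05 and a log2 fold change of 0.6 or more in either direction. Ordered from the largest decrease, hsa-miR-452-5p took place 3 and hsa-miR-224-5p place 4 of the 293. Among miRNAs with a mean of at least 100 they took places 2 and 3, so this line may also have had a part in their choice. Beside them, miR-145-5p fell by 0.60 on the log2 scale (DESeq2, adjusted p = 5.44e-06). It made up nearly all of the mesenchymal list, which summed to 176 CPM in HCT116* and 114 in the line. Its part in the result was not tested. A level per culture cannot tell fewer cells with the miRNA from less of it in each cell.

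Both were higher in RPE1 5/3 12/3. hsa-miR-452-5p had a level of 378 in RPE1 and 1271 in the line (52.5 and 115 CPM), a log2 fold change of 1.75 (SE 0.33), or 3.36-fold higher (DESeq2, adjusted p = 3.55e-06). hsa-miR-224-5p had 1182 in RPE1 and 2210 in the line (164 and 200 CPM), a log2 fold change of 0.90 (SE 0.35), or 1.87-fold higher (adjusted p = 0.0444). Of the 237 miRNAs tested here 30.4% were called, the highest share of the 7 comparisons. From the largest increase, hsa-miR-452-5p took place 6 and hsa-miR-224-5p place 36. The call of hsa-miR-224-5p lay close to the threshold and was lost on centering on the median of all tested miRNAs (0.84, adjusted p = 0.0687) and on taking each level as a share of the summed levels (0.29, adjusted p = 0.524). The summed levels were themselves higher in the line, by 0.62 on the log2 scale. Both calls were lost when the score was read against a t distribution with 2 degrees of freedom in place of the normal one. Under that reading of the DESeq2 score, 0 of the 237 were called, with 25 at an unadjusted p under 0.05. Of the 3 intestinal markers listed, miR-192-5p (1.29), miR-194-5p (1.28) and miR-215 (1.33, log2 fold changes) all rose, from a sum of 172 CPM to 276, and their part in the result was not tested. The same 3 were also called higher in HCT116 5/4 (1.96, 1.22 and 1.81), where neither GABRE miRNA was called. There miR-200c-5p and miR-141-5p were called lower (both -1.77), and miR-200b-5p was not called (-0.08). In HCT116 18/3 c2, also without a call of the pair, miR-192-5p was called lower (-1.21).

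In the other 3 tested lines neither miRNA was called. In HCT116* 3/3 c11 the levels were 1529 in HCT116* and 1122 in the line for hsa-miR-224-5p, and 440 and 325 for hsa-miR-452-5p. The log2 fold change of hsa-miR-224-5p was -0.45 (SE 0.16; DESeq2, adjusted p = 0.0411), which passed the adjusted p but not the limit on the fold change. That of hsa-miR-452-5p was -0.44 (SE 0.21, adjusted p = 0.135). Of all tested miRNAs in this line, 9.68% were called.

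In HCT116 18/3 c2 the log2 fold changes were above 0 for both. hsa-miR-452-5p had 376 in HCT116* and 523 in the line, with a log2 fold change of 0.48 (SE 0.12; DESeq2, adjusted p = 0.000708) that stayed under the limit on the fold change. hsa-miR-224-5p had 1296 and 1430, with a log2 fold change of 0.14 and a 95% interval of -0.06 to 0.34. As a share of the summed levels hsa-miR-224-5p lay on the other side, at 180 CPM in HCT116* and 164 in the line. Of all tested miRNAs in this line, 18.2% were called. HCT116, the parent that the study lists for it, stood at 111 CPM of hsa-miR-224-5p and 54.8 of hsa-miR-452-5p. HCT116*, the control used, stood at 180 and 52.3. The part of this difference in the fold changes was not tested. The 3 lines on the HCT116* libraries share their control, so any error in it enters all 3 comparisons.

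In HCT116 5/4 the levels of hsa-miR-224-5p were 481 in HCT116 and 516 in the line, and those of hsa-miR-452-5p were 237 and 190. The 95% intervals of the log2 fold changes, -0.25 to 0.46 and -0.72 to 0.09, both included 0 (DESeq2, adjusted p = 0.778 and 0.304), while 27.7% of the tested miRNAs were called. The direction of hsa-miR-224-5p depends on the scaling. As a share of the summed levels it went from 111 to 76.0 CPM and hsa-miR-452-5p from 54.8 to 28.0, because the summed levels were higher in this line by 0.65 on the log2 scale. On that scale hsa-miR-452-5p was called lower (-0.97, adjusted p = 1.9e-05 by Benjamini-Hochberg). In all, 4 of the 10 values tested in the 5 lines were called, 2 lower in HCT116* 8/3 c7 and 2 higher in RPE1 5/3 12/3. Over all miRNAs of the same lines, 263 of 1338 values were called, or 19.7%. This share includes HCT116* 8/3 c7. Without that line, 2 of the values of the pair were called, both in RPE1 5/3 12/3. In the lines then left, 9.68% (HCT116* 3/3 c11) to 30.4% (RPE1 5/3 12/3) of all tested miRNAs were called. Whether the pair was called more often than all miRNAs without HCT116* 8/3 c7 was not tested.

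In RPE1* 7/3, where the members were chosen, both miRNAs were at a few normalized counts per library. hsa-miR-224-5p stood at a level of 1311 in RPE1* and 7.60 in the line (116 and 0.684 CPM), a log2 fold change of -7.43 (SE 0.30), or 173-fold lower. hsa-miR-452-5p stood at 207 and 5.84 (18 and 0.526 CPM), a log2 fold change of -5.15 (SE 0.33), or 35.5-fold lower. These were the 2 lowest fold changes of the 247 tested miRNAs, of which 13% were called. With about 6 to 8 normalized counts in the average library of the line, counting error alone would give an SE of about 0.30 for hsa-miR-224-5p and 0.35 for hsa-miR-452-5p if normalized counts were raw reads, near the listed SEs of 0.30 and 0.33. In the other lines the listed SE of both miRNAs was above this estimate. In the same table miR-145-5p had a log2 fold change of -3.65, with the mesenchymal list at 16.1 CPM in RPE1* and 1.77 in the line, and miR-204-5p had 1.06, with the pigment epithelial list at 931 and 1983. Their part in the result was not tested.

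In RPE1* 21/3, the other line used for the choice, both were higher. hsa-miR-224-5p stood at 649 in RPE1* and 2470 in the line (77.3 and 320 CPM), a log2 fold change of 1.93 (SE 0.24), or 3.81-fold higher. hsa-miR-452-5p stood at 207 and 524 (24.7 and 67.9 CPM), a log2 fold change of 1.34 (SE 0.27), or 2.53-fold higher. They had the 2 highest fold changes of the 231 tested miRNAs, of which 8.66% were called. Here miR-145-5p had a log2 fold change of -1.53, against the direction of both, and the mesenchymal list stood at 158 CPM in RPE1* and 65.7 in the line.

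**Figure D2:**
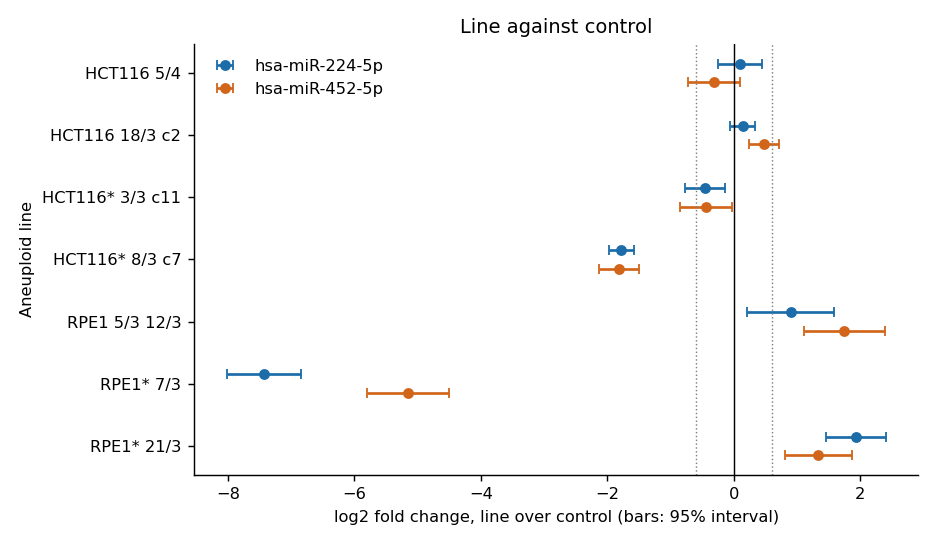
Log2 fold change of line over control for hsa-miR-224-5p (blue) and hsa-miR-452-5p (orange) in each of the 7 lines. Bars are 95% intervals from the listed standard errors and dotted lines mark 0.6 in both directions. The lines differ in direction, with both miRNAs lowest in RPE1* 7/3 (-7.43 and -5.15) and highest in RPE1* 21/3 and RPE1 5/3 12/3. Bars of RPE1* 7/3 and RPE1* 21/3 are a description only, since values of these lines were known when the pair was chosen.

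Whether the lines differ from each other was tested among the 5 tested lines, in the 7 pairs that share no control libraries, with a two-sided normal test of the difference of the log2 fold changes. The 14 differences are not independent. Each pair holds HCT116 5/4 or RPE1 5/3 12/3, most hold a line on the HCT116* libraries, and both miRNAs come from the same libraries. Of the 14 differences, 10 passed an adjusted p of 0.05 (Benjamini-Hochberg over the 14). On a t distribution, an alternative added after seeing the data, 6 did. These were both miRNAs between HCT116* 8/3 c7 and each of HCT116 5/4 and RPE1 5/3 12/3, and hsa-miR-452-5p between RPE1 5/3 12/3 and each of HCT116 5/4 and HCT116* 3/3 c11. The largest lay between HCT116* 8/3 c7 and RPE1 5/3 12/3, with -2.68 (SE 0.37) for hsa-miR-224-5p and -3.57 (95% interval -4.29 to -2.84) for hsa-miR-452-5p. Between HCT116 5/4 and HCT116 18/3 c2, hsa-miR-224-5p differed by -0.04 with an interval of -0.44 to 0.37. Between HCT116 5/4 and HCT116* 3/3 c11, hsa-miR-452-5p differed by 0.12 with an interval of -0.45 to 0.70. The differences of hsa-miR-224-5p in RPE1 5/3 12/3 from HCT116 5/4 and HCT116 18/3 c2 fell just short, with intervals of -1.58 to -0.02 and -1.48 to -0.04 before adjustment. Among the lines derived from HCT116, HCT116 5/4 and HCT116* 8/3 c7 differed in both miRNAs. The 5 tested lines hold a single line derived from RPE1, so no difference among RPE1 lines was tested.

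The log2 fold changes of the miRNAs had the same sign in 6 of the 7 lines, with the exception of HCT116 5/4, where both intervals included 0. In HCT116 18/3 c2 the interval of hsa-miR-224-5p included 0 as well. On summed levels the signs differed in HCT116 18/3 c2 (-0.13 for hsa-miR-224-5p and 0.20 for hsa-miR-452-5p) and were the same in HCT116 5/4 (-0.55 and -0.97). Over the lines, Pearson's r was 0.97 and Spearman's rho 0.96 (n = 7). The 7 values are not independent, because 3 lines share the HCT116* control and each value pair comes from the same libraries. Without RPE1* 7/3, r was 0.92 and rho 0.94 (n = 6). Without HCT116* 8/3 c7 as well, the 2 lines farthest from the median, r was 0.81 and rho 0.90 (n = 5).

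The gap between the log2 fold changes of the pair varied by line. In HCT116* 8/3 c7 the log2 fold change of hsa-miR-224-5p minus that of hsa-miR-452-5p was 0.04 and in HCT116* 3/3 c11 it was -0.01, with SEs of 0.19 and 0.26 if the errors are taken as independent. In HCT116 18/3 c2 it was -0.33 (SE 0.16), in HCT116 5/4 0.42 (SE 0.27) and in RPE1 5/3 12/3 -0.85 (SE 0.49). In the lines used for the choice it was 0.59 (SE 0.36) in RPE1* 21/3 and -2.28 (SE 0.45) in RPE1* 7/3, the widest gap. The ratios of the levels restate these values on a linear scale. hsa-miR-224-5p stood 3.45 to 3.50 times above hsa-miR-452-5p in HCT116*, and 3.46 times in HCT116* 3/3 c11 and 3.60 times in HCT116* 8/3 c7. In RPE1* 7/3 the ratio was 1.30 against 6.33 in its control, although both levels of the line were then a few counts. In RPE1* 21/3 it was 4.71 against 3.13, and in RPE1 5/3 12/3 1.74 against 3.13. Cloning and sequencing biases differ between miRNA sequences, so the ratio itself is not a ratio of molecules, whereas its change between groups is free of a constant bias.

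**Figure D3:**
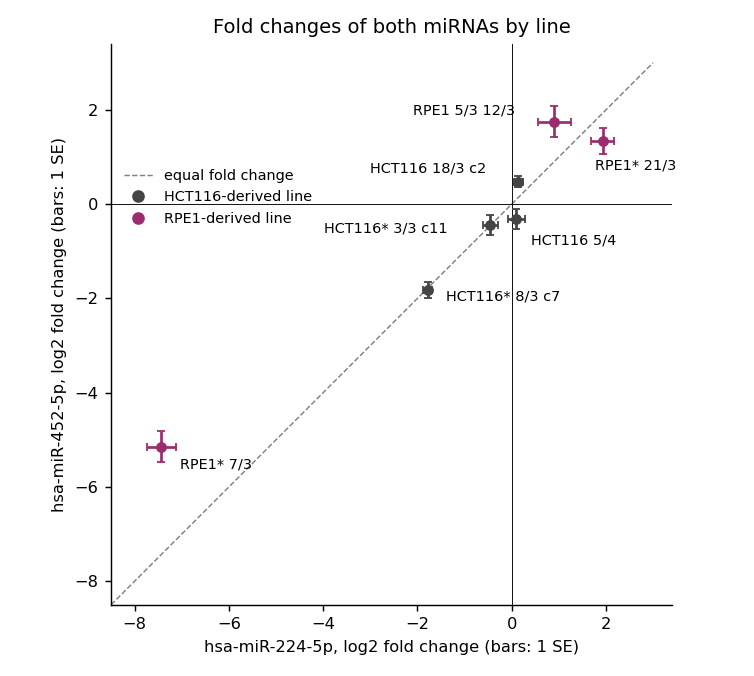
Log2 fold change of hsa-miR-452-5p against that of hsa-miR-224-5p in each of the 7 lines, with bars of 1 SE. Gray points are lines derived from HCT116 and purple points lines derived from RPE1, and the dashed line marks equal changes. HCT116* 8/3 c7 and HCT116* 3/3 c11 lie on the dashed line, and RPE1* 7/3 lies above it, with hsa-miR-224-5p the more reduced of the pair.

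The fold changes of both were then compared with those of all other miRNAs tested in all 7 tables, 172 for each. For hsa-miR-224-5p, hsa-miR-452-5p had the highest r (0.97) and the smallest root mean square difference of log2 fold changes (0.97), against medians of 0.06 and 3.03 over the 172. The next by r were let-7b-5p (0.91) and miR-1260a (0.88), and the next by difference were miR-145-5p (2.0) and miR-196a-5p (2.32). For hsa-miR-452-5p, hsa-miR-224-5p came first by both measures. It was followed by miR-1260a (0.89) and miR-1260b (0.84) by r, and by miR-145-5p (1.41) and miR-196a-5p (1.59) by difference.

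RPE1* 7/3 carries much of this likeness. Without it, let-7b-5p dropped to place 10 and miR-145-5p to place 121 by r with hsa-miR-224-5p. hsa-miR-452-5p kept an r of 0.92 and the smallest difference (0.48 against a median of 1.27), but by r it came second to miR-486-5p, also at 0.92. For hsa-miR-452-5p, hsa-miR-224-5p stayed first by both measures without RPE1* 7/3. The members were chosen with values of these lines known, so the first places are a description.

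**Figure D4:**
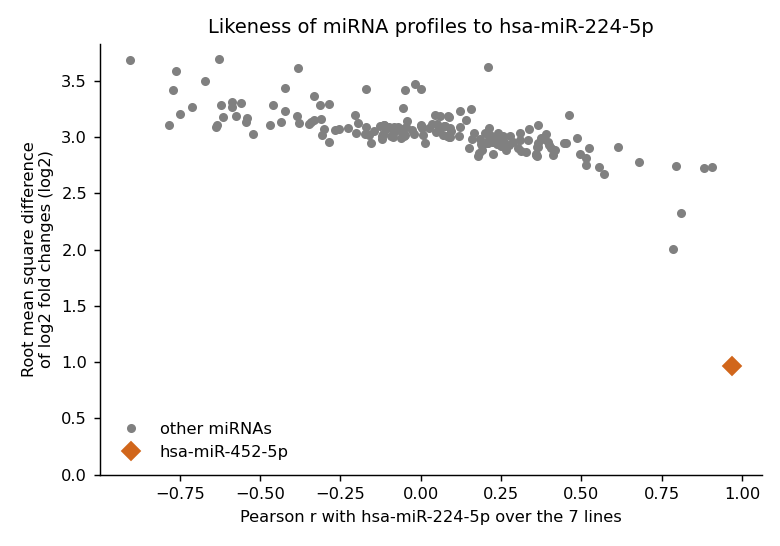
Each point is a miRNA tested in all 7 tables, placed by Pearson's r of its log2 fold changes with those of hsa-miR-224-5p (horizontal) and by the root mean square difference from them (vertical, log2 units). hsa-miR-452-5p (orange diamond) lies alone at the lower right, with an r of 0.97 and a difference of 0.97, and the next by difference lies at 2.0.

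Besides the pair, 32 listed miRNAs were placed on chromosome X only, and the share of them called was above that of all tested miRNAs in each line except RPE1* 7/3, by margins that were not tested. In RPE1* 7/3, 18 of these were tested, and their log2 fold changes ran from -0.71 (miR-222-5p) to 0.59 (miR-450a-5p), with a median of 0.13 against -0.04 for all tested miRNAs. By DESeq2, 0 of the 18 were called higher and 1 lower (3 and 2 at an unadjusted p under 0.05), and after centering 1 higher and 1 lower. The share called was 5.56% against 13% of all tested miRNAs. In HCT116* 8/3 c7, 20 were tested, 1 was called higher and 4 lower (25% against 15.0% of all), and the values ran from -0.90 (miR-374b-5p) to 1.15 (miR-222-5p) with a median of -0.33 against 0.01. In RPE1 5/3 12/3, DESeq2 called 0 of 19 higher and 6 lower (0 and 7 at an unadjusted p under 0.05), or 31.6% against 30.4% of all. Their median was -0.57 against 0.07, and 4 of the 19 had a log2 fold change above 0, as the pair did, the highest being 0.23 (miR-106a-5p). In RPE1* 21/3, 0 of 18 were called higher and 2 lower by DESeq2 (0 and 4 at an unadjusted p under 0.05), or 11.1% against 8.66% of all, with a range from -2.07 (miR-651) to 0.36 (miR-450a-5p).

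In the remaining lines the median log2 fold changes of these miRNAs were -0.13 in HCT116 5/4, -0.11 in HCT116 18/3 c2 and -0.20 in HCT116* 3/3 c11. DESeq2 called 6 of 22 higher and 3 lower in HCT116 5/4, and 2 of 19 higher and 3 lower in HCT116 18/3 c2. In HCT116* 3/3 c11 it called 0 of 19 higher and 2 lower, with 0 and 6 at an unadjusted p under 0.05. The shares called were 40.9%, 26.3% and 10.5%, against 27.7%, 18.2% and 9.68% of all tested miRNAs. Scaling by the summed levels moved these counts toward lower calls, from 21 to 43 over the 7 tables, and higher calls from 9 to 7. The nearest miRNA tested in all 7 tables was miR-503-5p, 17.4 Mb away toward lower coordinates, and on the other side of GABRE there was no such miRNA. miR-503-5p, which restrains cell division in many cell types, had log2 fold changes of 0.30 in RPE1* 7/3, 0.10 in RPE1* 21/3, -0.74 in HCT116* 8/3 c7 and -0.77 in RPE1 5/3 12/3. In HCT116 5/4, where neither GABRE miRNA was called, it had 3.61. Next to it, miR-450b-5p, 17.5 Mb away, had 0.23, 0.29, -0.08 and -0.68 in the same 4 lines and 1.47 in HCT116 5/4. The extent of the change along the chromosome around GABRE could therefore not be read from miRNAs tested in all lines.

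**Figure D5:**
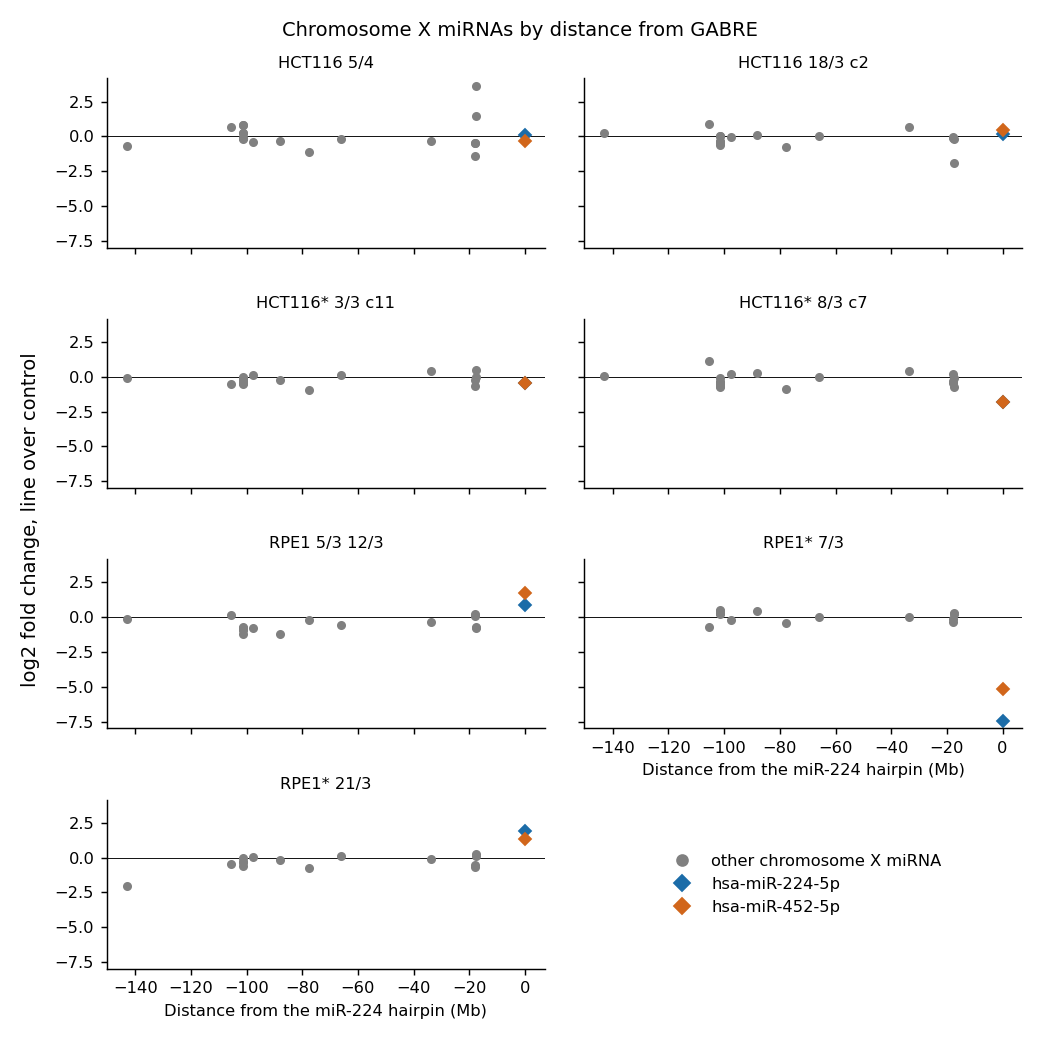
Log2 fold change of miRNAs placed at a single position on chromosome X (gray) by their distance in Mb from the miR-224 hairpin, 1 panel for each line, with hsa-miR-224-5p (blue) and hsa-miR-452-5p (orange). In RPE1* 7/3 the gray points run from -0.71 to 0.55 while the diamonds lie at -7.43 and -5.15, and the nearest gray points are 17.4 and 17.5 Mb away.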

How the data were processed

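Total RNA including small RNA was extracted, and 36 small RNA libraries were sequenced. The authors trimmed adapters with cutadapt, mapped reads to hg19, counted miRBase miRNAs with mirdeep2 and tested each line against its control with DESeq2 (the versions of cutadapt and DESeq2 are not given in the sources used here), with a replicate pair term for RPE1* 21/3, HCT116 5/4 and RPE1 5/3 12/3. The deposited mean is a signal, the average over 6 libraries of counts scaled by size factors. The deposited fold change is on the log2 scale with its SE, the deposited score is their ratio, and the deposited p-value is that of the Wald test, adjusted after Benjamini-Hochberg. These columns hold the authors' own comparison and were used because the tables contain no single libraries. A test on counts, as first designed, could therefore not be run, and total counts per library and detection floors are unknown.

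From a mean m and a log2 fold change f, the control level was 2m/(1 + 2 to the power f), and the line level that value times 2 to the power f. miRNAs with a mean of 10 or more were tested and called at an adjusted p below 0.05 with a log2 fold change of 0.6 or more in either direction. Intervals are the value ± 1.96 SE. Named miRNAs were the members, their closest miRNAs by r and by root mean square difference, the nearest on chromosome X and cell type markers. The lowest and highest members of a list are named by their values. The members and lists were chosen with earlier results of these data known. Positions are from GENCODE 44 on GRCh37. Scripts ran in Python 3.11.15 with scipy 1.17.1, pandas 2.3.3, matplotlib 3.10.9 and numpy 2.4.6, and were tested on simulated data.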

Additional observations from a re-analysis of the deposited data

Results flagged for a closer look

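Of the 14 differences between lines that share no control libraries, 10 were past the threshold (two-sided normal test, Benjamini-Hochberg), which brought them here. For hsa-miR-224-5p, the log2 fold change in HCT116 5/4 exceeded that in HCT116* 3/3 c11 by 0.55 (adjusted p = 0.0335) and that in HCT116* 8/3 c7 by 1.88 (3.81e-19). Against RPE1 5/3 12/3, it differed by -1.35 in HCT116* 3/3 c11 (adjusted p = 0.000977) and by -2.68 in HCT116* 8/3 c7 (1.65e-12). For hsa-miR-452-5p, HCT116 5/4 differed by -0.79 from HCT116 18/3 c2 (adjusted p = 0.00158), by 1.50 from HCT116* 8/3 c7 (2.89e-08) and by -2.07 from RPE1 5/3 12/3 (3.42e-07). Against RPE1 5/3 12/3, it also differed by -1.27 in HCT116 18/3 c2 (adjusted p = 0.000665), -2.19 in HCT116* 3/3 c11 (7.31e-08) and -3.57 in HCT116* 8/3 c7 (5.57e-21). With levels as shares of the summed levels, 9 of the 10 were again past the threshold. On a t distribution 6 of the 10 were. The exception on summed levels was hsa-miR-224-5p between HCT116 5/4 and HCT116* 3/3 c11, at 0.02 (adjusted p = 0.92). The study lists HCT116 5/4 and its control as provided by an outside laboratory. It lists HCT116 18/3 c2 as made from HCT116, although its control here was HCT116*. The part of either in these differences was not tested. The differences also share lines and libraries, so they are not independent.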

How the results depend on the processing

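No paired analysis was possible because the tables hold no values of single libraries, so the pair term that the deposited fits of RPE1* 21/3, HCT116 5/4 and RPE1 5/3 12/3 contain could be neither removed nor added elsewhere. For the same reason no replicate could be left out. Of 70 alternative values of the pair in the 5 tested lines, 60 stayed in the same direction and on the same side of the call. This count overstates the stability. Only centering and the summed levels alter the fold change, so under the other settings its direction could not change. Requiring a mean of at least 100 only repeated the main values, because both miRNAs lay above it in these lines. On the scale of the summed levels, hsa-miR-224-5p reversed in HCT116 5/4 (-0.55, adjusted p = 0.0075) and HCT116 18/3 c2 (-0.13), hsa-miR-452-5p became called in HCT116 5/4 (-0.97), and hsa-miR-224-5p lost its call in RPE1 5/3 12/3 (0.29), as the summed levels of these lines differed from those of their controls. Without the limit on the fold change, hsa-miR-452-5p was called in HCT116 18/3 c2 (0.48) and hsa-miR-224-5p in HCT116* 3/3 c11 (-0.45). In RPE1 5/3 12/3 hsa-miR-224-5p also lost its call in a test against 0.6 (0.90, adjusted p = 0.824), on a t distribution (0.90, adjusted p = 0.507) and centered on the median (0.84, adjusted p = 0.0687), and hsa-miR-452-5p on a t distribution (1.75, adjusted p = 0.491). The cause was not tested. Of 10 values, 4 were called, and 2 on a t distribution, both in HCT116* 8/3 c7, where it called 4.78% of all tested miRNAs. With the values of HCT116* 8/3 c7 left out, an alternative added after seeing the data, the 2 called were those of RPE1 5/3 12/3. Of the 10 differences between lines, 6 passed on a t distribution, also added. Without the 2 farthest lines, likewise added, r was 0.81. The ratio of the highest to the lowest control level of hsa-miR-224-5p over the 7 tables was 3.18 in normalized counts and 2.33 in CPM.

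Over all miRNAs of the 7 tables, 315 calls became 466 without the limit on the fold change, 432 on summed levels, 93 in a test against 0.6 and 23 on a t distribution. Higher calls went from 66.7% to 15.0% on summed levels in HCT116 5/4, from 49.0% to 14.3% in HCT116 18/3 c2, from 63.0% to 39.4% in HCT116* 3/3 c11, from 55.6% to 9.90% in RPE1 5/3 12/3 and from 45.0% to 60.9% in RPE1* 21/3.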
